A study of Arabidopsis thaliana with 6 samples.

Results

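The transcripts described here were already more abundant in hydrated Arabidopsis pollen than in dry pollen. They were 96 of the 22746 probe sets on the array that are not controls. They were chosen from measured values: with signals below 32 set to 32, the mean log2 signal of hydrated pollen had to exceed that of mature pollen by at least 1.5, and both hydrated arrays had to lie above both mature arrays and above 64. In all, 112 probe sets met these limits, and 16 of them, for genes such as the small heat shock protein gene AT1G53540, the calmodulin-like gene AT1G76640 and the ubiquitin ligase gene PUB23, were left out by name. Of the 96 that stayed, 40 were paired with 1 gene each, 3 with several genes and 53 were unnamed here. Signals on the mature and hydrated arrays therefore describe how the members were picked, and calls in hydrated against mature pollen are given as a description only. The tube arrays took no part in the choice.

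The samples were pollen of 50 day old Columbia plants with no mutation, transgene or drug treatment given in the labels, hybridised to Affymetrix ATH1 arrays as 3 stages of 2 arrays each. Dry mature pollen was collected by vacuum from freshly opened anthers. Hydrated pollen was shaken out of flowers into a sucrose and salt medium, centrifuged and incubated as a thin film at 25 °C for 45 min, and pollen tubes came from the same procedure after 4 h, with ungerminated grains removed on a mesh. The hydrated and tube samples thus shared a handling that mature pollen did not undergo, and the effect of water cannot be told apart from that of handling. The series' design text names the replicates biological. The sources used here do not say whether arrays with the same number came from the same plants.

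A dry pollen grain carries a large store of transcripts laid down before it is shed. Water entering the grain restarts metabolism and secretion within minutes, and the tube then grows at its tip from materials supplied by vesicles moving on actin. Refolding of proteins after drying, heating or mechanical stress is the work of chaperones: HSP70 takes up unfolded chains brought by J-domain proteins, nucleotide exchange factors such as Fes1 release them, and HOP proteins hand them to HSP90, which Aha1-type proteins stimulate.

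Signals are MAS5 intensities in arbitrary units, scaled by array, so a change is relative to the rest of that array's RNA. In bulk pollen, fewer cells of a type and less RNA per cell cannot be told apart. A signal at or under the 60th percentile of its array, which ran from 19.7 to 34.1 over the arrays, was taken as background. Of the fixed pollen markers, 11 of 19 were named on the array and all 11 were tested. Their summed signal was 62816.0 and 58423.1 in mature pollen, 52814.3 and 51985.6 in hydrated pollen, and 37961.1 and 37994.7 in tubes. The LIM-domain protein gene PLIM2a was the brightest of them and made up a large part of each sum. It read 31719.1 and 26376.5 in mature pollen, 28430.0 and 25214.9 in hydrated pollen, and 14833.6 and 13476.1 in tubes. The median log2 change of the 11 in tubes against hydrated pollen was -0.08. Limma called 0 of them risen and 2 fallen, against 2.54% and 2.03% of all tested probe sets. Markers of other tissues were sparsely named, with 1 photosynthesis gene of 16, 2 floral organ genes of 11, 3 tapetum genes of 17 and 0 epidermis genes of 8. The highest signal of any of these on any array was 50.8. Their summed signal in mature, hydrated and tube arrays, 2 arrays each, was 23.1, 19.4, 30.5, 7.9, 47.2 and 15.0 for photosynthesis. It was 61.6, 48.5, 39.6, 27.4, 86.7 and 29.3 for floral organs, and 26.7, 13.9, 47.1, 42.5, 51.7 and 8.1 for tapetum. The tapetum sum was higher on both hydrated arrays than on both mature arrays, the floral organ sum was lower on both, and the photosynthesis sums overlapped. None of the tapetum genes was above background on enough arrays to be tested, and their highest signal was 29.2. The part of other tissues in the members' signals was not tested.

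As chosen, the median member had a signal of 47.5 and 45.2 on the mature arrays and 289.15 and 286.05 on the hydrated arrays. On the tube arrays the median was 562.35 and 517.2. By rank, the median member lay at the 70.7th and 76.0th percentile in mature pollen and the 90.8th and 90.7th in hydrated pollen, and reached the 93.8th and 93.1st in tubes. In mature pollen, 18 members were at background on both arrays, 28 on 1 array and 50 on neither. The stretch from 2.0 on the second mature array to 11141.3 on the first tube array was covered by genes of unlike abundance, and the plot of signals by array shows it for the named ones.

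**Figure D1:**
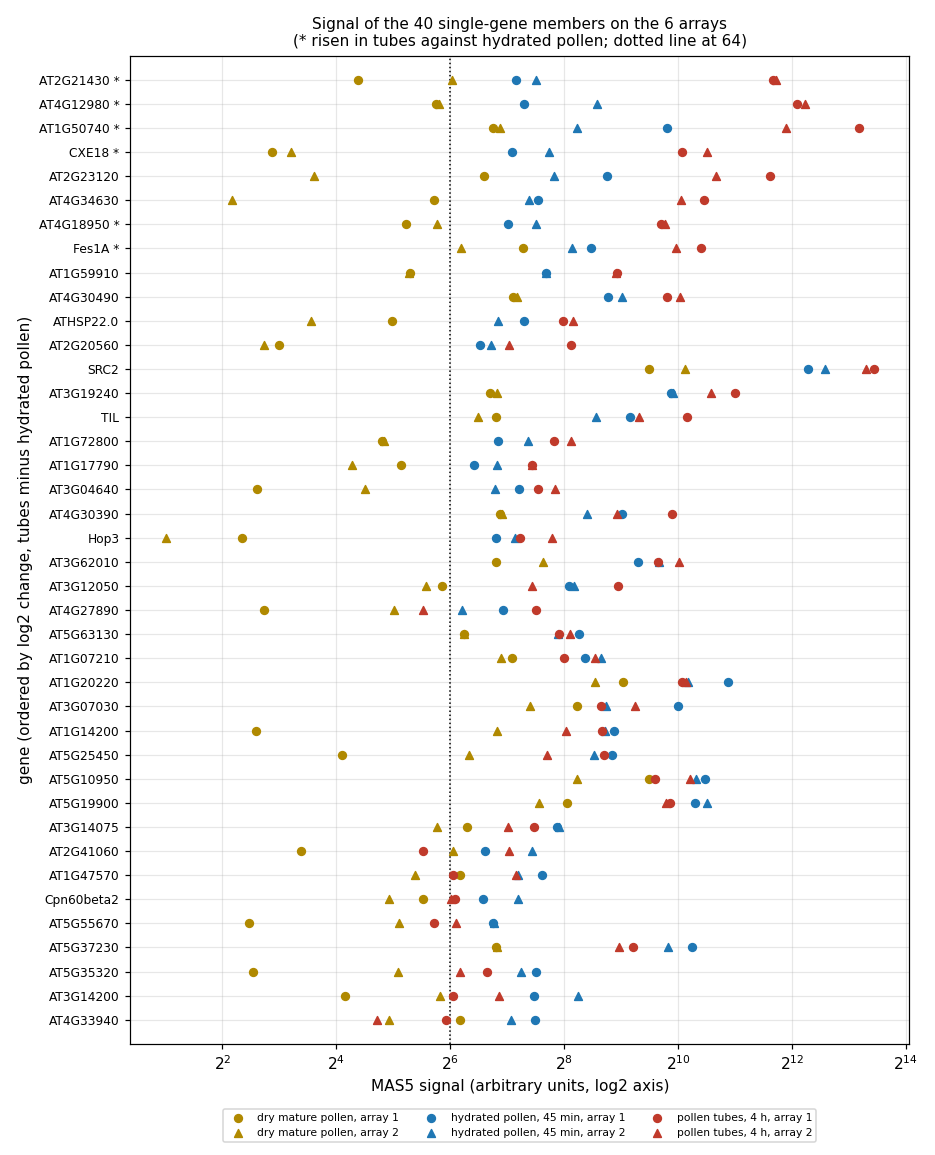
MAS5 signal (horizontal log2 axis, arbitrary units) of the 40 single-gene members on each array, circles for array 1 and triangles for array 2, coloured by stage; genes are ordered by their log2 change in tubes against hydrated pollen, and 6 marked with an asterisk rose in limma. At the top the tube signals lie far to the right of the hydrated ones, with AT2G21430 at 3264.1 and 3369.9 in tubes, and at the bottom they lie to the left, with AT4G33940 at 61.1 and 26.2 in tubes.

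Limma with Benjamini-Hochberg adjustment called 42 of the 96 risen and 0 fallen in hydrated against mature pollen, where 0.526% of all 11412 tested probe sets rose and 0.0526% fell. That contrast picked the members, so the count adds nothing to the choice.

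The limit of 1.5 cut through a continuous range. The 3 named members nearest above it were AT2G41060 (1.50), a UBA2-type RNA-binding protein gene, AT1G07210 (1.52), a ribosomal protein S18 family gene, and AT5G10950 (1.53), a Tudor/PWWP domain protein gene. Just below it lay the chromatin remodelling gene CHR23 (1.50, as 1.498 before rounding), AT1G09575 (1.48) and the calmodulin-like gene AT3G25600 (1.47).

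The comparison of tubes with hydrated pollen asked what became of these transcripts as tubes grew. The hydrated arrays in it also helped to pick the members. A choice of high hydrated signals can by itself lower the change in tubes, and its part was not tested. Limma called 17 of 96 risen and 0 fallen, and the other 79 did not pass, where 2.54% of all tested probe sets rose and 2.03% fell. The limits on both hydrated arrays also carried every member through the filter for testing. The median member lay at the 90.8th and 90.7th percentile in hydrated pollen. Other probe sets were tested if above the 60th percentile on at least 2 arrays. Here and below, the shares of all tested probe sets are not matched to the members for signal level. The part of signal level in these comparisons was not tested. At an unadjusted p under 0.05, 36 members were higher and 5 lower, and the share of all tested probe sets at that limit was not counted. A fit with the replicate number as a block, a pairing that the labels do not give, called 41 members risen and 4 fallen. In it 6.79% of all tested probe sets rose and 7.63% fell. The median change was 0.80 on the log2 scale, against -0.06 over all tested probe sets. On both tube arrays, 50 members lay above both hydrated arrays and 22 below both, while 24 overlapped. Over all tested probe sets 20.0% lay above and 23.1% below. The fitted change was at least 2-fold upward in 39 members (40.6%, against 16.4% of all tested), within 2-fold in 53 (55.2%, against 67.4%) and at least 2-fold downward in 4 (4.17%, against 16.3%).

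Set against mature pollen, whose arrays also helped to pick the members, 78 of 96 were called risen and 0 fallen in tubes (4.61% and 3.29% of all tested), and both tube arrays lay above both mature arrays in 91 (20.8% of all tested). The other 5 overlapped with mature pollen in tubes. Of these, 3 carried a gene name: AT2G41060, AT1G47570 and AT4G33940. The tube arrays of a member differed by a median of 0.412 in log2, against 0.656 over all tested probe sets. In hydrated pollen these medians were 0.481 and 0.612, and in mature pollen 0.788 and 0.711. The mature and hydrated arrays were also held to the limits that picked the members. The parts of signal level and of that choice in these differences were not tested.

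**Figure D2:**
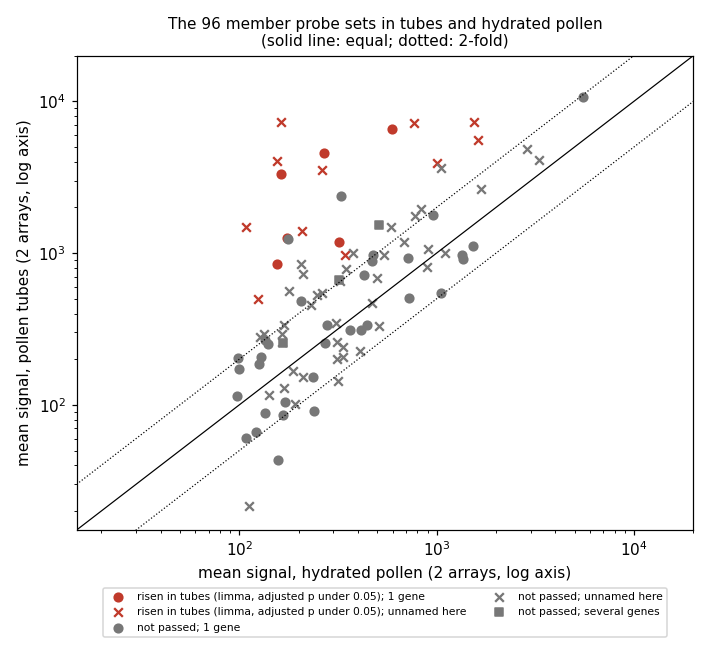
Mean signal in pollen tubes (vertical log axis) against mean signal in hydrated pollen (horizontal log axis) for the 96 member probe sets, 2 arrays per stage; the solid line marks equal signal and the dotted lines 2-fold. The 17 that rose are red and lie between 498.8 and 9289.9 on the first tube array, and 4 members lie at least 2-fold below the line of equal signal.

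Of the 17 that rose, 6 carried a gene name, among them genes for a protease, membrane proteins, an esterase and a kinase. AT2G21430, which encodes a papain-type cysteine protease, read 20.8 and 65.7 in mature pollen, 142.9 and 181.8 in hydrated pollen, and 3264.1 and 3369.9 in tubes. Both tube arrays were far above both hydrated arrays, by 4.36 ± 0.50 in log2 (SE, limma adjusted p = 0.00102, n = 2 arrays per stage), or 20.6-fold. AT4G12980, a membrane protein gene with DOMON and cytochrome b561 domains, read 53.7 and 55.9 in mature pollen, 156.7 and 379.9 in hydrated pollen, and 4364.3 and 4809.9 in tubes. Its rise in tubes was 4.23 ± 0.42 (limma adjusted p = 0.000439), and its hydrated arrays differed more from each other than its tube arrays did. These were the only named members that were also called in each fit that left out an array. Without the intensity trend neither was called (limma adjusted p = 0.0919 for AT2G21430 and 0.078 for AT4G12980). That fit called 0 of all tested probe sets in tubes against hydrated pollen.

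AT1G50740, a small membrane protein gene of the TMEM14 family, whose plant members include fatty acid exporters, read 107.1 and 117.5 in mature pollen, 893.4 and 299.6 in hydrated pollen, and 9289.9 and 3791.2 in tubes. It rose by 3.52 ± 0.53 in tubes against hydrated pollen (limma adjusted p = 0.00429). The first array was the higher in both hydrated pollen and tubes. The call was lost without the first tube array (limma adjusted p = 0.0968). CXE18, a carboxylesterase gene, was at background in mature pollen with 7.3 and 9.2. It read 136.5 and 214.3 in hydrated pollen, at least 5.85-fold over background in mature pollen, and 1071.9 and 1460.6 in tubes. The tube step was 2.87 ± 0.43 (limma adjusted p = 0.00421). AT4G18950, encoding a Raf-like kinase of the integrin-linked kinase type, read 37.5 and 54.6 in mature pollen, 129.8 and 182.6 in hydrated pollen, and 829.2 and 878.1 in tubes, a step of 2.47 ± 0.39 (limma adjusted p = 0.00502). For both genes the call depended on single arrays. Leaving out the first hydrated, the first tube or the second tube array gave limma adjusted p-values of 0.0557, 0.0604 and 0.0717 for CXE18, and 0.0621, 0.0881 and 0.0685 for AT4G18950.

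By role, 8 of the 40 members with 1 gene were chaperone or co-chaperone genes. Roles were assigned after the members' values had been seen. The 53 unnamed members and the 3 shared by several genes were given no role. In mature pollen the 8 were low, with stage means between 3.55 and 113.85. In hydrated pollen the means lay between 97.8 and 318.4, and in tubes between 65.9 and 1182.75. At the tube step 1 of the 8 passed, upward, with a median change of 0.30. The riser was Fes1A, the nucleotide exchange factor of cytosolic HSP70. It read 154.8 and 72.9 in mature pollen, 353.3 and 283.5 in hydrated pollen, and 1359.9 and 1005.6 in tubes. The step of 1.89 ± 0.41 passed (limma adjusted p = 0.0275), but not when either hydrated array or either tube array was left out (limma adjusted p between 0.117 and 0.267) or with a floor of 32 (0.134).

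The other HSP70 and HSP90 helpers did not pass at the tube step. Hop3, the adaptor between HSP70 and HSP90, was at background in mature pollen with 5.1 and 2.0, and read 112.4 and 140.8 in hydrated pollen and 149.8 and 221.1 in tubes. AT3G12050, an Aha1-type activator of HSP90, read 58.0 and 47.5 in mature pollen, 270.4 and 288.6 in hydrated pollen, and 495.7 and 172.9 in tubes. Hop3 was thus slightly higher on both tube arrays (0.53 ± 0.65, limma adjusted p = 0.82), whereas AT3G12050 straddled its hydrated level (0.07 ± 0.50, limma adjusted p = 0.982). Among J-domain proteins, AT3G14200 read 17.8 and 56.8 in mature pollen, 176.5 and 303.6 in hydrated pollen, and 66.4 and 115.7 in tubes. AT2G20560 read 8.0 and 6.6 in mature pollen, 91.9 and 105.2 in hydrated pollen, and 278.4 and 131.6 in tubes. AT3G14200 was therefore lower on both tube arrays (-1.40 ± 0.62, limma adjusted p = 0.312) and AT2G20560 higher on both (0.96 ± 0.57, limma adjusted p = 0.513). Neither change passed, and the difference between them was not tested. With the replicate number as a block, AT3G14200 was called fallen (limma adjusted p = 0.0188), as were 7.63% of all tested probe sets.

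ATHSP22.0, a small heat shock protein of the endoplasmic reticulum, was at background in mature pollen at 31.6 and 11.8, and read 156.2 and 114.2 in hydrated pollen and 251.4 and 286.2 in tubes (tube step 1.01 ± 0.54, limma adjusted p = 0.448). AT4G27890, a BOBBER-type chaperone of the NudC family, read 6.6 and 32.3 in mature pollen, 121.3 and 74.2 in hydrated pollen, and 182.5 and 46.0 in tubes, where the arrays lay on either side of the hydrated ones. Cpn60beta2, a chaperonin subunit of plastids, peaked in hydrated pollen at 95.7 and 146.5, with 45.8 and 30.2 in mature pollen and 67.5 and 64.3 in tubes. Its lower tube level did not pass (-0.85 ± 0.50, limma adjusted p = 0.515).

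Of 31 heat shock and chaperone genes in a list compiled by family, 14 were named on the array and 11 tested. Of the 11, ATHSP22.0 and Hop3 are members here, and 5 were among the genes left out by name. In tubes against hydrated pollen limma called 0 of the 11 risen and 0 fallen, with a median change of 1.21. Listed genes that were tested but did not meet the limits included Hop2, with 22.0 and 38.1 in mature pollen, 23.9 and 5.7 in hydrated pollen, and 31.6 and 20.2 in tubes. The constitutive HSP70 gene AT3G09440 read 27.0 and 37.8 in mature pollen, 27.5 and 71.6 in hydrated pollen, and 110.1 and 185.4 in tubes (tube step 1.69 ± 0.61, limma adjusted p = 0.191). Hop2, a paralog of Hop3, thus read between 5.7 and 38.1 over the 6 arrays. AT5G51440 read 14.7 and 4.0 in mature pollen, 50.2 and 75.9 in hydrated pollen, and 70.9 and 62.3 in tubes. AT1G52560 read 2.0 and 10.4 in mature pollen, 47.6 and 35.5 in hydrated pollen, and 92.3 and 49.5 in tubes. Both genes were higher on both hydrated arrays than on both mature arrays, but were not above 64 on both. The 8 heat shock factors listed were unnamed here.

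**Figure D3:**
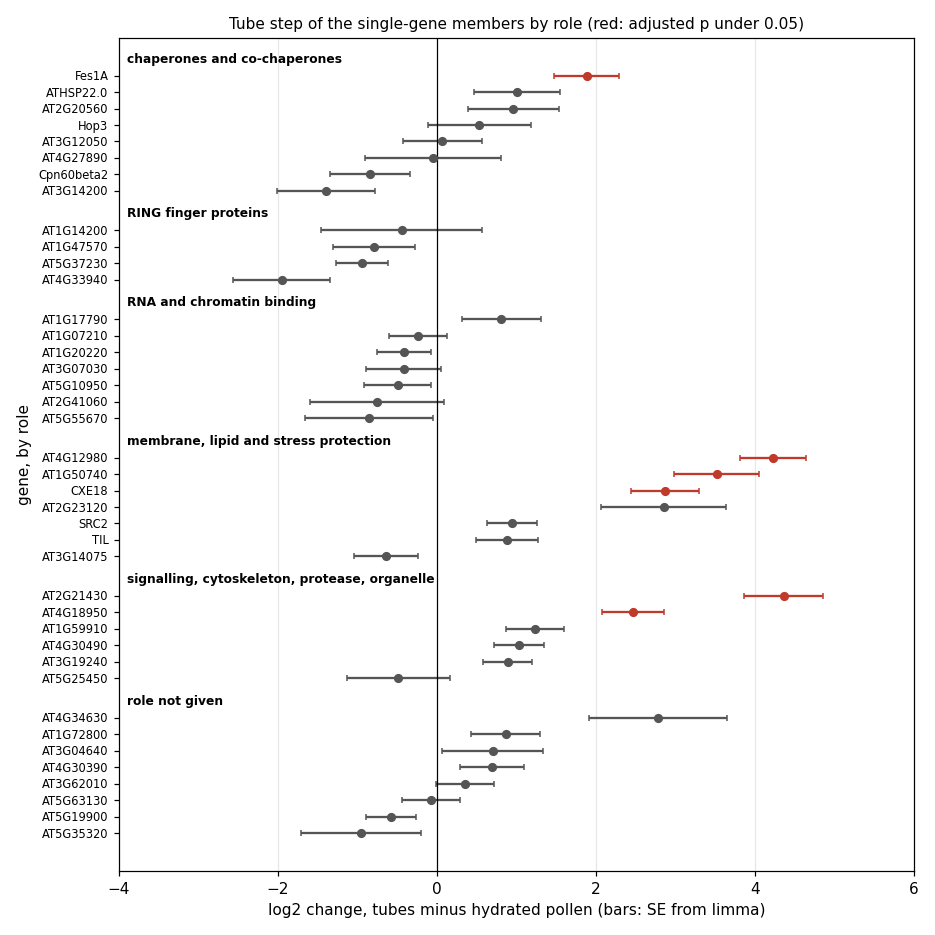
Log2 change in tubes minus hydrated pollen (horizontal axis, points with SE bars from limma, 2 arrays per stage) for the 40 single-gene members grouped by role. The 6 red points passed: Fes1A among the chaperones, 3 genes of the membrane, lipid and stress protection group and 2 of the signalling group, while all 4 RING finger genes lie below 0.

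RING finger genes, whose products include many ubiquitin ligases, made up 4 members. All 4 had a lower signal on both tube arrays than on both hydrated arrays, as did 23.1% of all tested probe sets. In limma with stage means 0 of 4 passed. With the replicate number as a block, AT5G37230 and AT4G33940 were called fallen (limma adjusted p = 0.00514 and 0.00421). In that fit 7.63% of all tested probe sets fell, and the hydrated arrays had helped to pick the members. AT5G37230 read 111.6 and 113.1 in mature pollen, 1210.0 and 903.6 in hydrated pollen, and 594.3 and 498.7 in tubes. Its probe set is of a type that may take signal from related genes. The tube step was -0.94 ± 0.32 (limma adjusted p = 0.166). AT1G14200 read 6.0 and 113.5 in mature pollen, 467.5 and 421.7 in hydrated pollen, and 405.9 and 262.3 in tubes, so the mature arrays disagreed more than the later ones. AT4G33940 read 71.8 and 30.3 in mature pollen, 179.3 and 134.3 in hydrated pollen, and 61.1 and 26.2 in tubes (tube step -1.96 ± 0.61, limma adjusted p = 0.12). It was the named member with the lowest tube step, and its tube signals overlapped those of mature pollen. AT1G47570 read 72.5 and 41.9 in mature pollen, 195.1 and 145.7 in hydrated pollen, and 66.6 and 142.1 in tubes. Of the 9 ubiquitin ligases listed for early stress responses, 4 were tested and 0 are named members. PUB23 met the limits and was left out by name.

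Genes for RNA-binding and chromatin proteins made up 7 members, of which 0 passed at the tube step. Their median change was -0.42, with 6 of 7 below 0. Alba proteins bind RNA and DNA, and in Arabidopsis some gather in stress granules. AT1G20220, an Alba gene and the second brightest named member in hydrated pollen, read 526.8 and 372.2 in mature pollen, 1882.2 and 1161.0 in hydrated pollen, and 1078.3 and 1134.6 in tubes. A further Alba gene, AT3G07030, read 299.4 and 169.1 in mature pollen, 1028.5 and 424.2 in hydrated pollen, and 401.4 and 607.8 in tubes. Both had their highest signal on the first hydrated array, and their tube steps were -0.42 ± 0.34 and -0.42 ± 0.47 (limma adjusted p = 0.683 and 0.798).

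AT5G10950 averaged 509.4 ± 296 in mature pollen (SD, n = 2) and read 1419.0 and 1272.8 in hydrated pollen and 772.1 and 1180.7 in tubes. AT1G07210 read 135.3 and 119.2 in mature pollen, 330.5 and 399.4 in hydrated pollen, and 255.4 and 371.2 in tubes. AT2G41060 read 10.4 and 66.2 in mature pollen, 97.9 and 173.5 in hydrated pollen, and 46.0 and 130.5 in tubes, so its tube arrays overlapped both other stages. The exception in direction was AT1G17790, a bromodomain protein gene, with 35.2 and 19.3 in mature pollen, 85.7 and 113.7 in hydrated pollen, and 173.9 and 172.7 in tubes. The RNA-binding protein gene AT5G55670 had 5.5 and 34.5 in mature pollen, 108.1 and 109.1 in hydrated pollen, and 52.8 and 68.4 in tubes.

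Genes for membrane, lipid and stress protection proteins made up 7 members, and 3 of them rose in tubes against hydrated pollen: AT4G12980, AT1G50740 and CXE18. The median change was 2.85, and 6 of 7 had both tube arrays above both hydrated arrays. Of all tested probe sets, 2.54% rose and 20.0% lay above on both arrays. SRC2, a C2-domain protein of membranes known for its response to cold, was the brightest named member at every stage. It read 721.4 and 1115.0 in mature pollen, 4967.5 and 6122.6 in hydrated pollen, and 11141.3 and 10103.6 in tubes. Its tube step of 0.94 ± 0.31 did not pass (limma adjusted p = 0.15), although it did after quantile normalization (1.32 ± 0.27, limma adjusted p = 0.0316).

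AT2G23120, which encodes a small late embryogenesis abundant (LEA) protein, a class that protects cells during drying, read 96.6 and 12.2 in mature pollen, 430.2 and 227.2 in hydrated pollen, and 3140.1 and 1626.0 in tubes. Its step of 2.85 ± 0.79 had limma adjusted p = 0.0741. The mature arrays differed widely, and without the first or the second mature array the step passed (limma adjusted p = 0.00476 and 0.00331). TIL, the temperature-induced lipocalin, a lipid-binding protein linked to heat and oxidative stress tolerance, read 111.4 and 89.3 in mature pollen, 568.7 and 375.6 in hydrated pollen, and 1141.2 and 633.7 in tubes. The lipase family gene AT3G14075 was the exception, lower in tubes at 177.7 and 129.7, against 234.2 and 239.3 in hydrated pollen, and it read 78.4 and 54.6 in mature pollen.

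The last group with a known role joined signalling, cytoskeleton, protein breakdown and organelle genes, 6 in all, of which AT2G21430 and AT4G18950 rose. AT1G59910, a formin, a protein that starts and elongates actin filaments, read 39.0 and 38.8 in mature pollen, 206.3 and 204.4 in hydrated pollen, and 484.6 and 480.1 in tubes. Its arrays agreed closely at each stage, and its tube step was 1.23 ± 0.36 (limma adjusted p = 0.0967). AT3G19240, related to the yeast vacuolar import protein Vid27, read 103.3 and 113.7 in mature pollen, 942.5 and 966.4 in hydrated pollen, and 2051.2 and 1534.8 in tubes. AT4G30490, an AFG1-type mitochondrial ATPase gene, read 138.0 and 144.0 in mature pollen, 434.7 and 519.4 in hydrated pollen, and 901.3 and 1053.9 in tubes. These 3 genes were higher on both tube arrays than on both hydrated arrays without passing. AT5G25450, a subunit gene of the mitochondrial cytochrome bc1 complex, read 17.1 and 80.1 in mature pollen, 459.4 and 368.5 in hydrated pollen, and 416.6 and 207.8 in tubes. With signals below 32 set to 32, its difference in hydrated against mature pollen was 3.02 in log2, that of AT5G37230 3.22 and that of AT3G19240 3.14.

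For the remaining 8 named members no role is given. None passed at the tube step, and the changes ran from -0.96 to 2.79. The highest was AT4G34630, with 52.7 and 4.5 in mature pollen, 187.4 and 167.2 in hydrated pollen, and 1397.2 and 1066.7 in tubes (limma adjusted p = 0.12). AT5G19900 was bright in hydrated pollen at 1257.4 and 1457.6, with 266.5 and 189.2 in mature pollen and 932.5 and 886.7 in tubes. Both of its tube arrays were below both hydrated arrays and above both mature arrays. AT5G35320, AT3G62010, AT1G72800, AT3G04640, AT5G63130 and AT4G30390 had mean signals in tubes between 86.5 and 923.6. Among the 40 members with 1 gene, none were adjacent in the reference gene order, and the closest pair, AT4G30390 and AT4G30490, had 10 genes between them.

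The 53 unnamed probe sets behaved over a wide range at the tube step, from -2.29 to 5.54 in log2, with a median of 0.99. Of these, 11 rose and 0 fell (2.54% and 2.03% of all tested). Both tube arrays lay above both hydrated arrays in 29 (20.0% of all tested). The highest tube step was that of a probe set with 27.5 and 40.4 in mature pollen, 213.9 and 112.1 in hydrated pollen, and 8757.4 and 5957.3 in tubes (5.54 ± 0.41, limma adjusted p = 0.000142). With signals below 32 set to 32, another unnamed probe set had the highest difference in hydrated against mature pollen. It read 53.1 and 23.3 in mature pollen, 3526.0 and 2202.3 in hydrated pollen, and 5328.8 and 4317.4 in tubes (floored difference 6.08 in log2, tube step 0.78 ± 0.42, limma adjusted p = 0.448). The lowest tube step among the unnamed belonged to one with 5.1 and 2.7 in mature pollen, 72.7 and 150.9 in hydrated pollen, and 20.7 and 22.2 in tubes (-2.29 ± 0.92, limma adjusted p = 0.253). The 3 probe sets shared by several genes had tube steps between 0.74 and 1.54, and none passed. The highest of these steps was that of AT1G59860 and AT1G07400, both on the heat shock and chaperone list. Their shared probe set read 38.2 and 6.5 in mature pollen, 591.8 and 427.2 in hydrated pollen, and 2017.0 and 1063.5 in tubes.

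The count of 17 risers rested on both arrays of each compared stage, as the plot of counts by fit shows. It was 7 without the first tube array, 9 without the second, 8 without the first hydrated array and 14 without the second. Over all tested probe sets the share called risen was then 0.484%, 0.725%, 1.37% and 1.50%. In each of the 6 fits that left out an array the same 7 members were called risen, AT2G21430, AT4G12980 and 5 unnamed ones. Limma without the intensity trend called 0 members, and 0 of all 11412 tested probe sets rose or fell in that fit. At an unadjusted p under 0.05 it had 27 members risen and 2 fallen, and the share of all tested probe sets was not counted there.

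**Figure D4:**
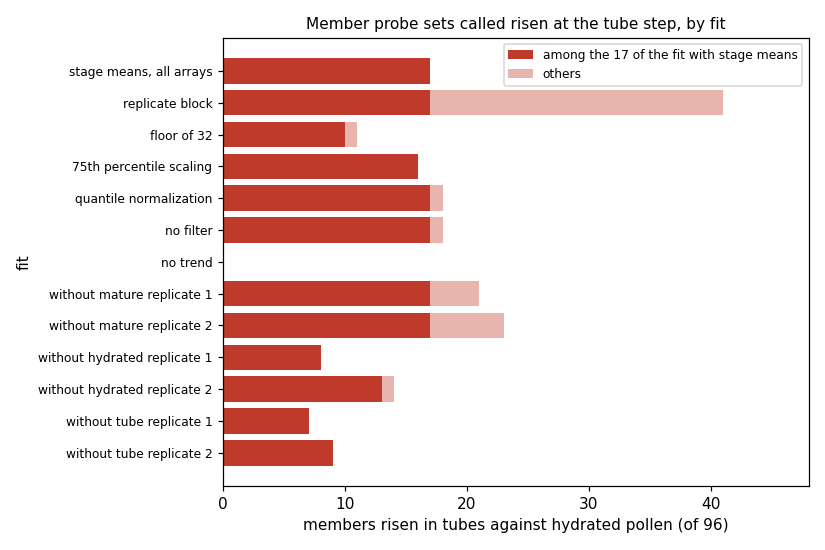
Number of the 96 members called risen in tubes against hydrated pollen (horizontal axis) in each limma fit, with the dark part of a bar counting those among the 17 of the fit with stage means and the pale part others. The bars run from 0 without the intensity trend to 41 with the replicate number as a block. Of all tested probe sets, 0 rose without the trend and 6.79% rose with the block.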

How the data were processed

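Transcript levels were measured on 6 ATH1 arrays. The deposited values are linear signal intensity, 1 per probe set and array, made by the authors with GCOS 1.0 and MAS5, per the submitters' processing notes. Leaving out the lowest and highest 2% of values, array means were 100.02 to 100.03, nearly the same on each array. Detection calls and genome builds are not given in the sources used here, and no coordinates or sequences are printed.

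Values below 0.1 were set to 0.1 and log2 was taken. Probe sets above their array's 60th percentile on at least 2 arrays, 11412 in number, were tested with limma 3.58.1 in R 4.3.3, with a mean per stage over all 6 arrays, 3 residual degrees of freedom and an intensity trend. Tests were two-sided, adjusted by Benjamini-Hochberg over all tested probe sets, and called below 0.05. The number of arrays limits the precision. Names came from the platform annotation, which paired 13513 probe sets with 1 gene, 503 with several and left 8730 unnamed here; all 40 named members had their gene in the TAIR10.1 reference table.

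Members, gene lists and tests were chosen with earlier results of these data known. The genes to name were those passing in tubes against hydrated pollen, the 10 highest in hydrated minus mature pollen, the 6 brightest in tubes and in hydrated pollen, those on the lists, and the 3 on each side of the limit. Others were named to complete a role group, after their values had been seen. Besides heat shock, lists covered heat shock factors, WRKY, ZAT, ERF, NAC and MYB factors, jasmonate, calcium sensors, MAP kinase signalling, ubiquitin ligases and detoxification, and tissue markers. The alternatives were a replicate block, a floor of 32, scaling to the 75th percentile, quantile normalization, no filter, no trend and each array left out.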

Additional observations from a re-analysis of the deposited data

How the results depend on the processing

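With 2 arrays per stage, counts moved with the fit. Differences between array 1 and array 2 correlated across probe sets by 0.174 between mature and hydrated pollen, 0.221 between mature pollen and tubes, and 0.185 between hydrated pollen and tubes, and the labels give the arrays no more than a shared number. With the replicate number as a block, 41 members rose and 4 fell in tubes against hydrated pollen, and all 17 risers were among the 41. Over all tested probe sets 6.79% then rose and 7.63% fell. The 4 were AT5G37230, AT4G33940, AT3G14200 and an unnamed probe set, none of which passed without the block. The block called 96 risen in hydrated against mature pollen, the contrast that picked them. A floor of 32 left 11 risers in tubes against hydrated pollen, 10 of them among the 17, where 1.94% of all tested rose. It called 0 members in hydrated against mature pollen (92 at an unadjusted p under 0.05). Limma without the trend called 0 members in tubes against hydrated pollen, where it called 0 of all tested probe sets. It called 0 members in hydrated against mature pollen (91 at an unadjusted p under 0.05) and 41 in tubes against mature pollen. Shares of all tested probe sets were not counted at an unadjusted p, nor for these fits in the comparisons with mature pollen. With an array left out, risen members numbered 7 to 23 in tubes against hydrated pollen, 17 to 47 in hydrated against mature pollen and 59 to 80 in tubes against mature pollen, and 0 fell. The cause of these changes was not tested. The 75th percentile scaling, quantile normalization and no filter gave 16, 18 and 18 risers (1.7%, 2.23% and 1.31% of all tested). Under the 75th percentile scaling the median of all tested probe sets at the tube step was -0.11. The median member change stayed between 0.61 and 0.93. Of 252 refits of 21 named genes in tubes against hydrated pollen, 219 kept their direction and their side of the threshold, 19 lost the call and 9 gained it. Only the 6 of these genes called in the fit with stage means could lose a call. With the block, no filter, no trend or a mature array left out, the log2 change is the same by construction. Its direction could not turn in those refits. The sign turned in 5 refits of 4 genes that passed in neither fit: AT3G12050 ran from -0.69 to 0.83 with an array left out and was -0.0050 after quantile normalization, and with an array left out AT1G07210 ran from -0.51 to 0.031, AT2G41060 from -1.50 to 0.0019 and AT5G25450 from -0.99 to 0.018. The limits found 118 members with a floor of 16, 61 with a floor of 64, 212 at a difference of at least 1, 56 at 2, 107 after the 75th percentile scaling, 92 after quantile normalization, 142 on the arrays of number 1 alone and 118 on those of number 2 alone. Promoter motifs were not run, since no promoter sequence was used here.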

Other observations

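Most early stress regulators on the lists were unnamed here or too dim to test. Of 13 WRKY factors 1 was tested, of 20 MAP kinase and immune signalling genes 1, and of the 8 zinc fingers and 21 ERF and DREB factors 0. The jasmonate (17 listed) and NAC and MYB lists (12 listed) had 0 genes named on the array. No named member was on these lists, and whether the 53 unnamed members include listed genes cannot be told here.

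Calcium sensors were better covered, with 12 of 33 tested. None was a member, and 2 were left out of the members by name. In tubes against hydrated pollen 1 rose and 0 fell, with a median of 0.81. The calmodulin-like gene AT3G25600, just under the limit for members, read 418.9 and 182.3 in mature pollen, 956.7 and 614.3 in hydrated pollen, and 2999.0 and 1456.8 in tubes. AT4G03290, an abundant EF-hand gene of pollen, read 11153.2 and 9453.5 in mature pollen, 10693.3 and 12060.9 in hydrated pollen, and 5457.6 and 5397.5 in tubes.

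Of 24 detoxification genes 3 were tested and 0 were named members. UGT73B5, a glucosyltransferase, read 80.5 and 72.0 in mature pollen and 56.4 and 69.5 in hydrated pollen, and rose in tubes, to 414.6 and 420.6 (2.74 ± 0.39 against hydrated pollen, limma adjusted p = 0.00347).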
